A study of Arabidopsis with 8 samples.

Results

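The genes of sodium handling in Arabidopsis thaliana that are described here are SOS1, SOS2, SOS3, HKT1 and NHX1 to NHX6, chosen by name and found by locus tag. They are 10 of the 25397 genes listed in at least 1 of the 8 deposited RNA libraries, and each of the 10 was listed in all 8. The tested genotype was the saur41/40/71/72 quadruple mutant, which carries mutations in SAUR41, SAUR40, SAUR71 and SAUR72, genes of a family of small proteins induced by auxin. Its controls were wild-type Col-0 plants. Root and shoot part were collected from seedlings at 5 days of age, which gave 4 groups of 2 libraries: mutant root, Col-0 root, mutant shoot and Col-0 shoot. The labels state no salt treatment for any group, so the values are levels in seedlings with no stated stress. They do not give the single alleles of the mutant or say whether replicates came from separate plantings, and p-values therefore measure only the spread between these libraries.

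Sodium is toxic to the plant cytosol, and plants remove it across membranes or hold it back from the shoot. SOS3, a calcium sensor, binds and activates the protein kinase SOS2, and SOS2 phosphorylates SOS1, a sodium/proton antiporter of the plasma membrane that exports sodium. HKT1 is a sodium transporter of cells around the xylem and takes sodium out of the sap on its way to the shoot, while the NHX antiporters exchange potassium or sodium for protons at the vacuole (NHX1 to NHX4) or in endosomes and the Golgi (NHX5 and NHX6).

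The deposited loci of the 10 genes are in the TAIR10 build. SOS1 (AT2G01980, deposited under the name NHX7) spanned bases 457010 to 463326 of chromosome 2. The kinase gene SOS2 (AT5G35410, deposited as CIPK24) lay at 13634454 to 13638297 and the sensor gene SOS3 (AT5G24270, deposited as CBL4) at 8238534 to 8243357 of chromosome 5. HKT1 (AT4G10310) lay at 6391984 to 6395877 of chromosome 4. Of the vacuolar antiporters, NHX1 (AT5G27150) lay at 9553438 to 9557513 of chromosome 5 and NHX2 (AT3G05030) at 1393296 to 1397358 of chromosome 3. The endosomal pair was on chromosome 1, NHX5 (AT1G54370) at 20290556 to 20297133 and NHX6 (AT1G79610) at 29952873 to 29957189. The names NHX3 and NHX4 are used here as RefSeq uses them, and the deposited files have them the other way round: AT5G55470, at 22468687 to 22472706 of chromosome 5, is NHX3 here and NHX4 in the files, and AT3G06370, at 1930396 to 1934073 of chromosome 3, is NHX4 here and NHX3 in the files. The deposited loci of NHX5 and NHX3 each also held a neighbouring gene, TAF6B (AT1G54360) and AT5G55460, so reads of these pairs may be shared.

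The tissue labels matched their marker genes. A list of 5 root markers summed to between 169 and 198 FPKM (fragments per kilobase of transcript and per unit of library size) in the root libraries and to between 1.58 and 4.56 FPKM in the shoot libraries, where 2 or 3 of the 5 were absent from the table, and so set to 0, and EXPA7 was absent in all 4. A list of 4 green tissue markers summed to between 84.6 and 89.9 FPKM in root and to between 31130 and 43440 FPKM in shoot. The number of genes listed per library ran from 21355 to 22858. The sources used here give no read totals, and low FPKM values placed the depth of each library between 0.874 and 1.22 times that of Col-0 replicate 1 of the same tissue. These depths are rough, since they rest on the most frequent ratio, held by 17 to 66 of the 2886 to 3820 low genes used per library. Of the mutated genes, SAUR72 had 16.9 and 16.3 FPKM in the mutant root against 23.4 and 31.6 FPKM in Col-0 root, and 4.18 and 3.96 FPKM in the mutant shoot against 9.41 and 7.57 FPKM in Col-0 shoot. Neither SAUR72 nor SAUR71 or SAUR41 passed the test between genotypes, SAUR41 overlapped between genotypes in both tissues, and SAUR40 was too low to be tested. Col-0 shoot replicate 1 stood apart from its partner: the 2 Col-0 shoot libraries correlated at r = 0.966 over log2 values, against 0.996 in each of the other groups, and LHCB1.3 was absent from its table and set to 0. Its values are the lowest of the 4 shoot libraries for 10 of the 10 sodium genes, as for 64% of the 19985 genes tested, so results on Col-0 shoot are given below without it where the call of one of the 10 genes, or a count over the wider gene lists, differs.

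NHX1, the main vacuolar antiporter gene, had the highest level of the 10 genes in all 8 libraries. It stood at 61.7 and 57.7 FPKM in the mutant root and 60.4 and 59.0 FPKM in Col-0 root, and at 35.8 and 33.6 FPKM in the mutant shoot and 19.1 and 28.9 FPKM in Col-0 shoot. In the mutant root the order after NHX1 was NHX5, NHX6, SOS3, SOS1, NHX2, NHX4, HKT1, SOS2 and NHX3, and of these neighbours only NHX4 and HKT1 overlapped between their replicates. In Col-0 root the order was NHX1, NHX5, SOS3, NHX6, SOS1, NHX2, NHX4, SOS2, HKT1 and NHX3. There NHX5, SOS3 and NHX6 overlapped in turn, as did NHX2 with NHX4 and SOS2 with HKT1. The mutant shoot had the order NHX1, NHX5, NHX2, NHX6, SOS1, HKT1, NHX4, SOS2, NHX3 and SOS3, in which NHX5 overlapped with NHX2 and NHX6 with SOS1. The Col-0 shoot order was NHX1, NHX2, NHX5, HKT1, NHX4, NHX6, SOS1, SOS2, NHX3 and SOS3. Here HKT1, NHX4, NHX6, SOS1 and SOS2 overlapped in turn, as did NHX2 with NHX5 and NHX3 with SOS3, so the order of these neighbours did not exceed the spread between replicates. HKT1, NHX4 and NHX6 each still lay above SOS2 without overlap. SOS3 was thus among the 4 highest of the 10 genes in both root groups and the lowest of the 10 in both shoot groups.

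**Figure D1:**
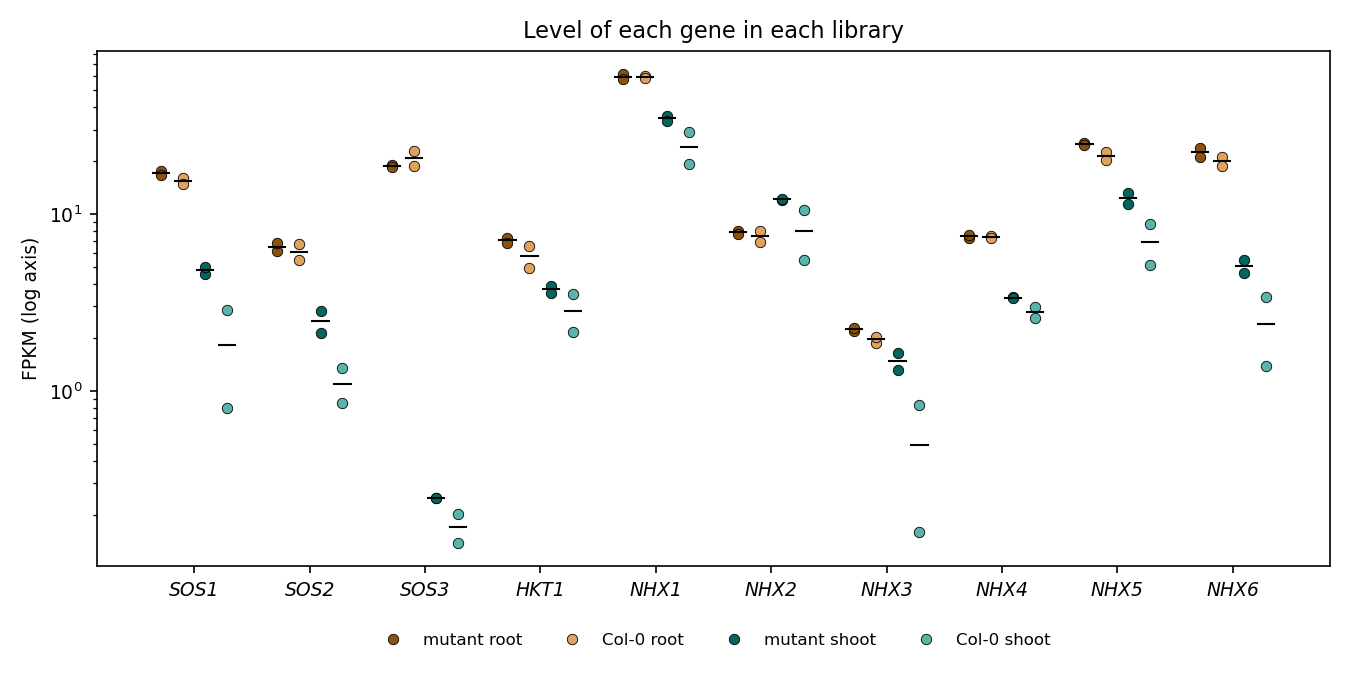
Levels of the 10 sodium genes in the 8 libraries, in FPKM on a log axis, with 1 point per library coloured by group and a bar at each group's mean (n = 2). SOS3 has the widest gap between root and shoot, with 18.3 to 22.6 FPKM in root and 0.139 to 0.248 FPKM in shoot.

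Root was compared with shoot within each genotype. The deposited FPKM of most genes were higher in root: over all 19985 genes tested, the median root minus shoot difference was 0.81 in the mutant and 1.23 in Col-0 on the log2(FPKM + 1) scale. Of the tested genes, 58.7% were higher in root in the mutant and 17.7% lower, and in Col-0 72.1% were higher and 15% lower (limma, Benjamini-Hochberg adjusted p under 0.05). Against this background, 8 of the 10 sodium genes were higher in root in the mutant and 9 of 10 in Col-0, and none was lower in root. Their median difference was 0.96 in the mutant and 1.42 in Col-0, and 6 of the 10 lay above the median of all genes in each genotype. The 10 most abundant genes held between 12.9% and 17.6% of the summed FPKM in shoot libraries and between 3.48% and 3.94% in root libraries, and FPKM is a share of a library's total. Tissue differences are therefore also given after rescaling every library by its median ratio to the others, which left the median of all genes at 0.06 in the mutant and 0.09 in Col-0. After rescaling, 3 of the 10 genes were higher in root in the mutant, where 30.6% of all genes were, and 4 of 10 in Col-0, where 32.8% were. NHX2 was then lower in root in both genotypes, as were 28.6% of all genes in the mutant and 30.6% in Col-0.

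SOS3, the calcium sensor gene, was the most root-biased of the 10. It had 18.9 and 18.3 FPKM in the mutant root and 22.6 and 18.7 FPKM in Col-0 root, against 0.248 and 0.247 FPKM in the mutant shoot and 0.139 and 0.203 FPKM in Col-0 shoot. No root library came near any shoot library. The ratio of group means, root over shoot, was 75.2 in the mutant and 121 in Col-0, and the difference on the log2(FPKM + 1) scale was 3.98 ± 0.14 in the mutant (SE, n = 2 each, limma adjusted p = 5.79e-07) and 4.20 ± 0.14 in Col-0 (adjusted p = 4.52e-07). The added 1 FPKM compresses these differences, since SOS3 was below 1 FPKM in shoot. After rescaling they were 3.35 in the mutant (limma adjusted p = 1.11e-06) and 3.49 in Col-0 (adjusted p = 9.18e-07).

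SOS2, the kinase gene, had 6.20 and 6.82 FPKM in the mutant root and 6.73 and 5.48 FPKM in Col-0 root, against 2.13 and 2.81 FPKM in the mutant shoot and 0.849 and 1.35 FPKM in Col-0 shoot. Root and shoot did not overlap in either genotype. The root minus shoot difference was 1.12 ± 0.19 in the mutant (SE, limma adjusted p = 0.00127) and 1.76 ± 0.19 in Col-0 (adjusted p = 0.000107). After rescaling it was 0.80 in Col-0 (limma adjusted p = 0.00342) and 0.41 in the mutant, where it no longer passed (adjusted p = 0.0601). Without Col-0 shoot replicate 1 the rescaled difference in the mutant passed, at 0.40 (limma adjusted p = 0.0193).

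SOS1, the antiporter gene at the end of the pathway, had 17.5 and 16.6 FPKM in the mutant root and 16.0 and 14.7 FPKM in Col-0 root, against 4.58 and 5.01 FPKM in the mutant shoot and 0.803 and 2.85 FPKM in Col-0 shoot. All 4 root libraries lay above all 4 shoot libraries, and the Col-0 shoot pair was the most spread of the groups. The difference was 1.64 ± 0.33 in the mutant (SE, limma adjusted p = 0.00315) and 2.63 ± 0.33 in Col-0 (adjusted p = 0.00025). It stayed past the threshold after rescaling, at 0.84 in the mutant (limma adjusted p = 0.0401) and 1.58 in Col-0 (adjusted p = 0.00249).

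HKT1, which takes sodium back from the xylem, had 7.35 and 6.88 FPKM in the mutant root and 6.58 and 4.97 FPKM in Col-0 root, against 3.94 and 3.56 FPKM in the mutant shoot and 2.16 and 3.53 FPKM in Col-0 shoot. The deposited values gave differences of 0.77 ± 0.21 in the mutant (SE, limma adjusted p = 0.0137) and 0.83 ± 0.21 in Col-0 (adjusted p = 0.00854). The deposited difference was close to the median of all genes in the mutant and below it in Col-0. Once the libraries were rescaled it was 0.03 in the mutant (limma adjusted p = 0.875) and changed sign to -0.29 in Col-0 (adjusted p = 0.162), and without Col-0 shoot replicate 1 the Col-0 value was -0.38 and passed (adjusted p = 0.0456). The deposited call was lost in the mutant without mutant root replicate 1, mutant root replicate 2 or mutant shoot replicate 2 (limma adjusted p between 0.0549 and 0.0754), and in Col-0 without Col-0 root replicate 1 (adjusted p = 0.0641). A list of 6 xylem markers summed to 220 and 231 FPKM in the mutant root and 184 and 204 FPKM in Col-0 root, against 91.8 and 80.8 FPKM in the mutant shoot and 69.8 and 85.8 FPKM in Col-0 shoot, with none of the 6 at 0. Xylem markers thus moved with tissue as deposited HKT1 did, and their part in the HKT1 values was not tested. Fewer cells of a type and less RNA per cell cannot be told apart in such tissue samples.

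**Figure D2:**
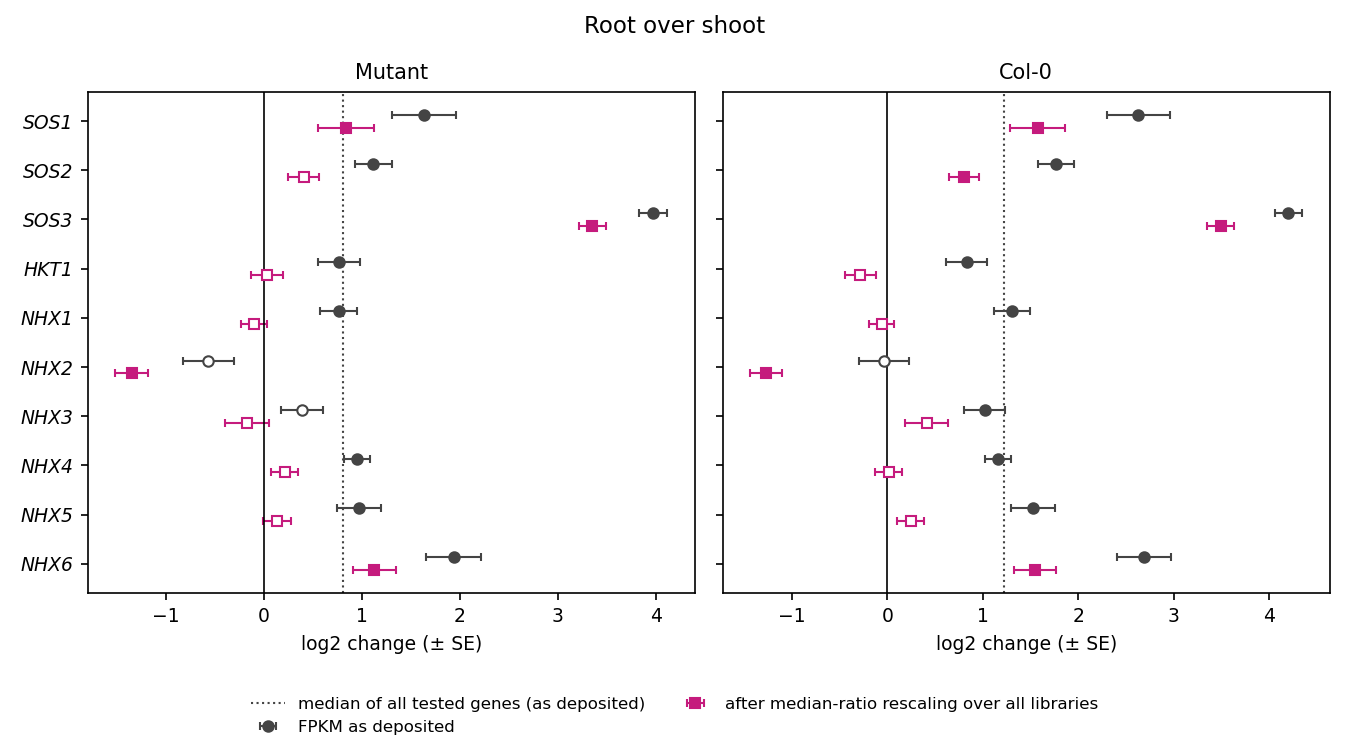
Root minus shoot difference of the 10 sodium genes on the log2 scale, in the mutant and in Col-0, from the deposited FPKM and after median-ratio rescaling, with standard errors as bars, filled markers for differences that passed the test and a dotted line at the median of all tested genes as deposited. SOS3, NHX6 and SOS1 lie to the root side and passed on both scalings in both genotypes, and NHX2 lies to the shoot side after rescaling. SOS2, NHX4 and NHX5 also lie to the root side throughout, but not all of their differences passed.

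Among the NHX genes, NHX6, an endosomal antiporter, had the widest tissue gap. Its level was 23.6 and 21.0 FPKM in the mutant root and 21.0 and 18.7 FPKM in Col-0 root, against 4.64 and 5.53 FPKM in the mutant shoot and 1.38 and 3.38 FPKM in Col-0 shoot. Root exceeded shoot in every library, by 1.94 ± 0.28 in the mutant (SE, limma adjusted p = 0.00068) and 2.69 ± 0.28 in Col-0 (adjusted p = 0.00011). Rescaled differences of 1.13 in the mutant (limma adjusted p = 0.00369) and 1.55 in Col-0 (adjusted p = 0.000713) also passed. NHX5, the other endosomal antiporter, had 25.3 and 24.6 FPKM in the mutant root and 22.4 and 20.3 FPKM in Col-0 root, against 11.3 and 13.2 FPKM in the mutant shoot and 5.16 and 8.75 FPKM in Col-0 shoot. Its differences of 0.97 ± 0.23 in the mutant (SE, limma adjusted p = 0.00656) and 1.53 ± 0.23 in Col-0 (adjusted p = 0.000616) no longer passed after rescaling, at 0.14 and 0.24. TAF6B, whose reads may mix with those of NHX5, ran from 28.5 to 30.5 FPKM in root and from 11.4 to 18.2 FPKM in shoot.

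NHX2, a vacuolar antiporter close in function to NHX1, was the exception to the higher FPKM in root. It had 8.02 and 7.70 FPKM in the mutant root and 6.95 and 8.03 FPKM in Col-0 root, against 12.0 and 12.2 FPKM in the mutant shoot and 5.52 and 10.5 FPKM in Col-0 shoot. The mutant groups did not overlap and root was the lower, whereas the Col-0 shoot values lay on either side of the Col-0 root values. The deposited differences were -0.56 ± 0.26 in the mutant (SE, limma adjusted p = 0.0888) and -0.03 ± 0.26 in Col-0 (adjusted p = 0.91), and neither passed. The Col-0 value turned on its shoot pair, at -0.44 without Col-0 shoot replicate 1 (limma adjusted p = 0.00441) and 0.38 without Col-0 shoot replicate 2 (adjusted p = 0.0102). The mutant value passed when either of these libraries was left out of the shared estimate of the spread (limma adjusted p = 0.000278 and 0.000296). On rescaled values NHX2 stood at 5.32 and 5.07 in the mutant root and 4.60 and 5.27 in Col-0 root, against 14.8 and 14.7 in the mutant shoot and 11.5 and 15.4 in Col-0 shoot. The rescaled difference was -1.35 in the mutant (limma adjusted p = 0.000312) and -1.27 in Col-0 (adjusted p = 0.000401).

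NHX1 was higher in root as deposited, by 0.77 ± 0.19 in the mutant (SE, limma adjusted p = 0.00836) and 1.31 ± 0.19 in Col-0 (adjusted p = 0.000528), and the call in the mutant was lost without mutant root replicate 1 (adjusted p = 0.0543) or mutant shoot replicate 2 (adjusted p = 0.0502). Rescaled, it stood at 41.0 and 38.0 in the mutant root and 39.9 and 38.7 in Col-0 root, against 44.2 and 40.6 in the mutant shoot and 39.7 and 42.4 in Col-0 shoot. The rescaled values of the 2 tissues lay close together, and the differences of -0.10 in the mutant and -0.06 in Col-0 had the opposite sign and did not pass (limma adjusted p = 0.539 and 0.713). NHX4, a vacuolar antiporter with a lower level, had 7.35 and 7.59 FPKM in the mutant root and 7.54 and 7.36 FPKM in Col-0 root, against 3.39 and 3.35 FPKM in the mutant shoot and 2.60 and 2.98 FPKM in Col-0 shoot. Its replicates were close in every group, and its differences of 0.96 ± 0.13 in the mutant (SE, limma adjusted p = 0.000505) and 1.16 ± 0.13 in Col-0 (adjusted p = 0.000157) lay at 0.22 and 0.01 after rescaling, where neither passed. NHX3, the lowest of the 6 NHX genes, had 2.19 and 2.28 FPKM in the mutant root and 1.88 and 2.03 FPKM in Col-0 root, against 1.31 and 1.63 FPKM in the mutant shoot and 0.160 and 0.829 FPKM in Col-0 shoot. It was higher in root in Col-0 by 1.02 ± 0.21 (SE, limma adjusted p = 0.00321), and the 0.39 ± 0.21 in the mutant did not pass (adjusted p = 0.131) unless a Col-0 shoot library was left out of the fit (adjusted p = 0.0105 without replicate 1 and 0.0106 without replicate 2). After rescaling NHX3 passed in neither genotype, at -0.17 in the mutant, the opposite sign, and 0.41 in Col-0.

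Ratios within a library do not depend on how the libraries were scaled to each other. NHX1 held between 47.7% and 51.1% of the summed FPKM of the 6 NHX genes in the root libraries and between 48.4% and 56.3% in the shoot libraries, so it made up about the same part in both tissues. NHX2 held between 5.78% and 6.96% in root and between 16.3% and 19.0% in shoot, without overlap. The endosomal pair NHX5 and NHX6 together held 38.2% and 37.7% in the mutant root and 36.2% and 33.8% in Col-0 root, against 23.3% and 26.95% in the mutant shoot and 19.3% and 21.9% in Col-0 shoot. The smaller endosomal part in shoot lay mainly with NHX6, which held 16.2% to 18.4% in root and 4.08% to 7.96% in shoot, while NHX5 held 17.6% to 20.3% in root and 15.2% to 19.0% in shoot. With 2 libraries a group these ratios were not tested, and they are shares of FPKM, not of protein.

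**Figure D3:**
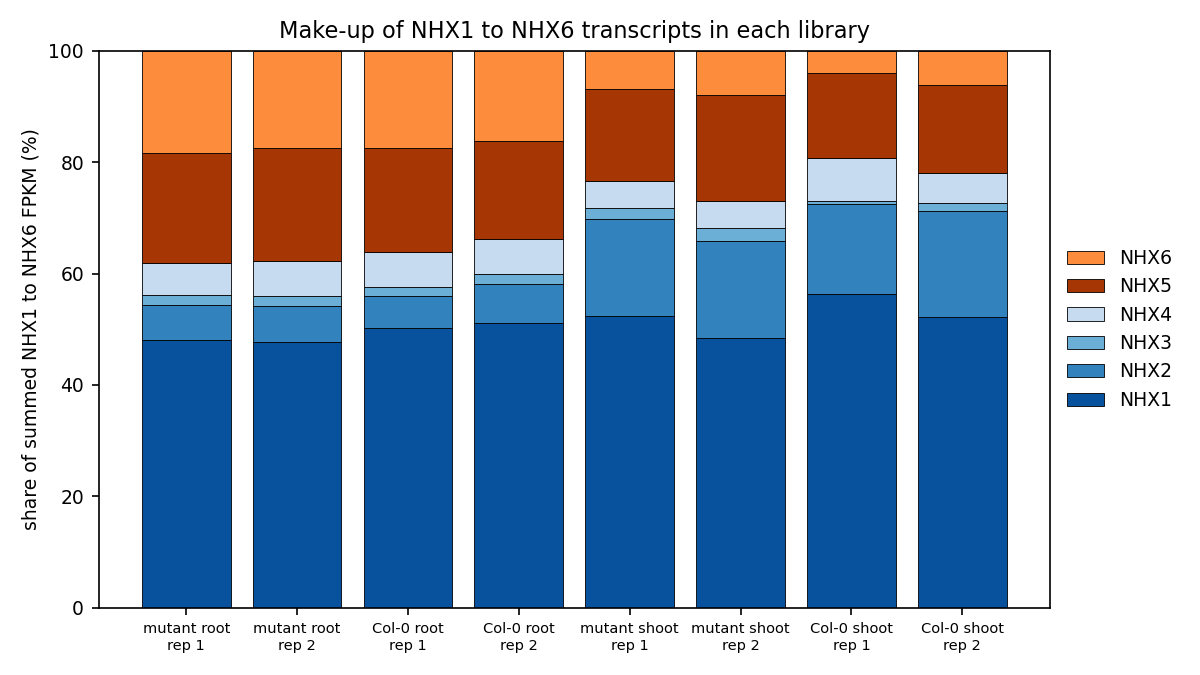
Share of each of the 6 NHX genes in their summed FPKM, in percent, 1 stacked bar per library from 0 to 100. NHX1 holds about the same part everywhere, NHX2 holds 5.78% to 6.96% in root and 16.3% to 19.0% in shoot, and NHX6 holds 16.2% to 18.4% in root and 4.08% to 7.96% in shoot.

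The transcripts of 2 calcium sensors of SOS2, SOS3 and CBL10, differed between tissues in opposite directions, and binding to SOS2 was not measured. CBL10, a sensor related to SOS3 that activates SOS2 chiefly in the shoot, had 2.18 and 3.73 FPKM in the mutant root and 2.89 and 1.77 FPKM in Col-0 root, against 17.7 and 20.2 FPKM in the mutant shoot and 10.5 and 12.9 FPKM in Col-0 shoot. Every root library was lower than every shoot library, with differences of -2.36 ± 0.26 in the mutant (SE, limma adjusted p = 0.000156) and -1.94 ± 0.26 in Col-0 (adjusted p = 0.000353), and of -3.05 and -3.08 after rescaling. Within a library, CBL10 over SOS3 was 0.115 and 0.203 in the mutant root and 0.128 and 0.0947 in Col-0 root, against 71.2 and 81.9 in the mutant shoot and 75.4 and 63.6 in Col-0 shoot. Of these 2 sensor transcripts, SOS3 was thus the more abundant in all 4 root libraries and CBL10 in all 4 shoot libraries. The ratio of SOS1 to HKT1, the exporter gene over the retrieval gene, was 2.37 and 2.42 in the mutant root and 2.43 and 2.96 in Col-0 root, against 1.16 and 1.41 in the mutant shoot and 0.372 and 0.809 in Col-0 shoot.

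**Figure D4:**
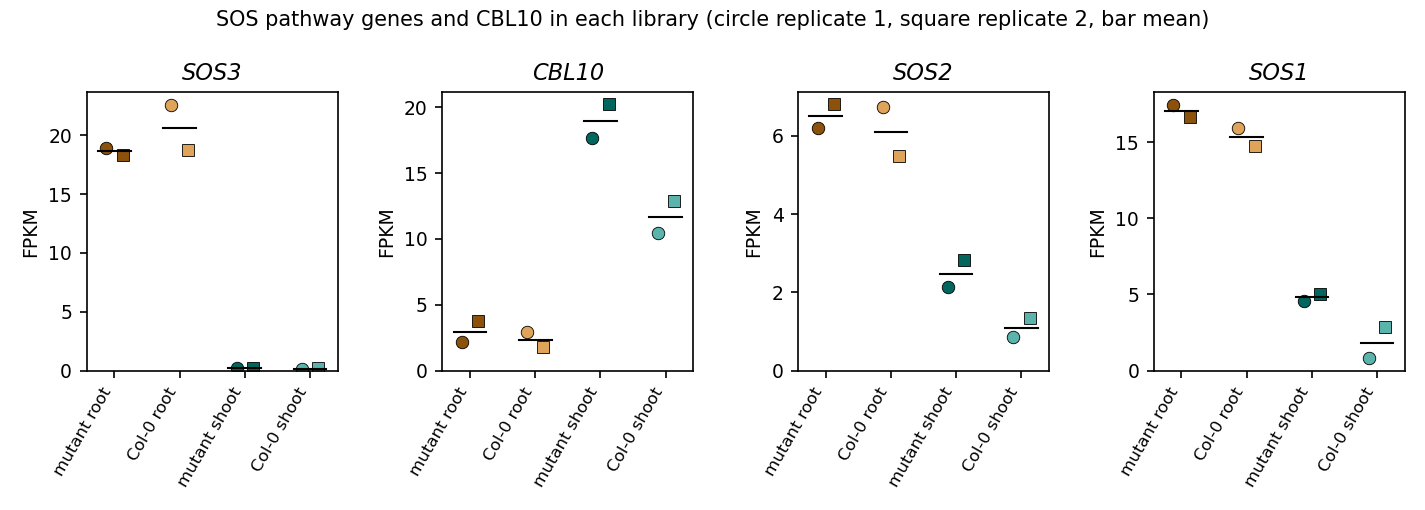
SOS3, CBL10, SOS2 and SOS1 in each of the 8 libraries, in FPKM on linear axes from 0, with circles for replicate 1, squares for replicate 2 and a bar at each group's mean. SOS3 lies at 18.3 to 22.6 FPKM in root and at 0.139 to 0.248 FPKM in shoot, while CBL10 lies at 1.77 to 3.73 FPKM in root and at 10.5 to 20.2 FPKM in shoot.

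Mutant and Col-0 were then compared in root. None of the 10 sodium genes passed the test there, and 2 of the 19985 genes tested did (0.01%, limma adjusted p under 0.05), while 514 had an unadjusted p under 0.05. The largest difference, mutant minus Col-0, was that of HKT1 at 0.27 ± 0.21, followed by NHX5 at 0.22 ± 0.23, and the most negative was that of SOS3 at -0.14 ± 0.14 (SE on the log2(FPKM + 1) scale, n = 2 each, limma adjusted p = 1 for each). NHX1 differed by -0.00 ± 0.19 and NHX4 by 0.00 ± 0.13, and NHX1 changed sign when the libraries were rescaled and NHX4 when 1 root library was left out. The mutant root libraries lay above both Col-0 root libraries in 4 of the 10 genes, as in 20.5% of all genes, and below both in none, where 22.9% of all genes were.

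In shoot the mutant values were the higher for 10 of the 10 genes, without overlap with Col-0 shoot, as for 56.8% of all genes tested. None passed the test, against 1.02% of all genes (204 genes, 192 of them higher in the mutant), and 7738 genes had an unadjusted p under 0.05. SOS1 had 4.58 and 5.01 FPKM in the mutant shoot against 0.803 and 2.85 FPKM in Col-0 shoot, a ratio of means of 2.62 and a difference of 1.14 ± 0.33 (SE, limma adjusted p = 0.0832). NHX6 differed by 0.91 ± 0.28, NHX5 by 0.77 ± 0.23, NHX3 by 0.76 ± 0.21 and SOS2 by 0.73 ± 0.19 (SE, limma adjusted p between 0.0744 and 0.089). The vacuolar genes NHX2 and NHX1 differed by 0.59 ± 0.26 and 0.54 ± 0.19, HKT1 by 0.33 ± 0.21, NHX4 by 0.21 ± 0.13 and SOS3 by 0.09 ± 0.14 (SE, limma adjusted p between 0.0995 and 0.668). The median over the 10 genes was 0.66 and that over all genes tested was 0.31.

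These shoot differences rested on the Col-0 shoot pair. Without Col-0 shoot replicate 1, 4 of the 10 genes passed as higher in the mutant, where 23.7% of all genes did: SOS1 by 0.59 (limma adjusted p = 0.00766), SOS2 by 0.56 (adjusted p = 0.0395), NHX6 by 0.47 (adjusted p = 0.0304) and NHX5 by 0.44 (adjusted p = 0.023). The lone Col-0 shoot library was then assumed to vary as the other groups do. Without Col-0 shoot replicate 2, 8 of the 10 passed, where 55.6% of all genes did. Rescaling within the shoot libraries brought the median of all genes to 0.01 and left none of the 10 genes past the threshold, as against 0.0851% of all genes, with HKT1 at -0.01 and NHX4 at -0.14 of opposite sign. The difference also followed gene length, with a Spearman correlation across the tested genes of 0.53 in shoot and 0.40 in root between the difference and the length of the locus, and genes are not independent replicates. With that trend removed, SOS3 had the largest shoot difference in size, at -0.54 and of turned sign (limma adjusted p = 0.129). SOS1 differed by 0.38 (limma adjusted p = 0.0922) and NHX6 by 0.32 (adjusted p = 0.156). NHX4 at -0.32, HKT1 at -0.22, NHX1 at -0.02 and NHX5 at -0.00 also turned sign, and none of the 10 passed, against 5.09% of all genes.

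**Figure D5:**
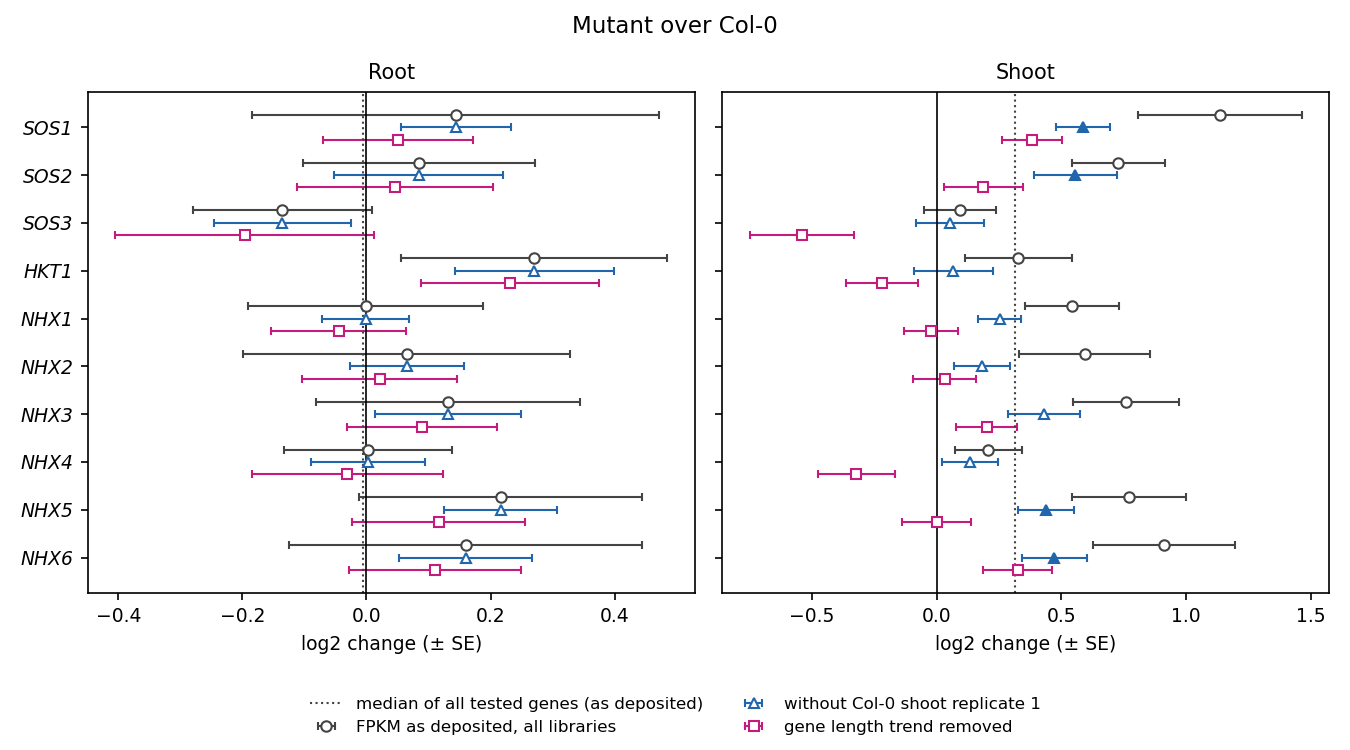
Mutant minus Col-0 difference of the 10 sodium genes on the log2(FPKM + 1) scale in root and in shoot, as deposited (circles), without Col-0 shoot replicate 1 (triangles) and with the length trend removed (squares). Bars are standard errors, filled markers passed the test and the dotted line is the median of all tested genes as deposited; the circles lie between -0.14 and 0.27 in root and between 0.09 and 1.14 in shoot.

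The shoot difference minus the root difference was tested directly. It passed for none of the 10 genes and for 0% of all genes (limma), of which 3094 had an unadjusted p under 0.05. SOS1 had the largest value of the 10, at 0.99 (limma adjusted p = 0.332), which was 0.44 without Col-0 shoot replicate 1 (adjusted p = 0.0758) and 1.54 without Col-0 shoot replicate 2 (adjusted p = 3.66e-05). The adjusted p of the 10 genes lay between 0.319 and 0.915, and the median of their values was 0.55, against 0.34 over all genes. Without Col-0 shoot replicate 2, 7 of the 10 passed, where 51.5% of all genes did, and without Col-0 shoot replicate 1 the value of HKT1 was -0.20 in place of 0.06. A difference in how the mutation acted in the 2 tissues was therefore not detectable for these genes with these libraries.

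The wider set of sodium and potassium genes comprised 56 genes in 4 lists, of which 54 were tested. In root none passed between mutant and Col-0, and the largest difference of each list was 0.27 for the annexin gene ANN4, 0.20 for CBL1, 0.26 for the antiporter gene KEA3 and 0.17 for the vacuolar pump gene VHA-a3 (limma adjusted p = 1 for each). In shoot 2 of the 54 passed as higher in the mutant, where 1.02% of all genes passed. Without Col-0 shoot replicate 1, 22 passed as higher, where 23.7% of all genes did, and without Col-0 shoot replicate 2, 45 passed as higher, where 55.6% of all genes did, and 3 as lower. The shoot minus root difference passed for none of the 54 with all libraries, as for 0% of all genes. When either Col-0 shoot library was left out, calls appeared among the 54 and among all genes. Those fits leave 1 library in that group, so the 54 were not set against all genes there. The range over all genes is in the closing section. CBL1, a calcium sensor gene related to SOS3, had 26.2 and 25.6 FPKM in the mutant shoot against 4.95 and 9.62 FPKM in Col-0 shoot, a difference of 1.76 ± 0.27 (SE, limma adjusted p = 0.0479). CAX1, a vacuolar calcium/proton antiporter gene, had 83.5 and 85.4 FPKM in the mutant shoot against 21.5 and 35.4 FPKM in Col-0 shoot, a difference of 1.58 ± 0.22 (SE, limma adjusted p = 0.0466). The mutant shoot libraries lay above both Col-0 shoot libraries for each of these genes, and each lost its call in 12 of 18 alternative fits. Both scalings were among these, with limma adjusted p between 0.0535 and 0.066. For both genes at least 1 other fit gave an adjusted p far above that range.

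Between tissues, 31 of the 54 genes were higher in root and 10 lower in the mutant, where 58.7% of all genes were higher and 17.7% lower. In Col-0, 38 were higher and 7 lower, where 72.1% of all genes were higher and 15% lower. After rescaling the balance turned, with 12 higher and 20 lower in the mutant and 16 higher and 21 lower in Col-0, where 30.6% of all genes were higher and 28.6% lower in the mutant and 32.8% higher and 30.6% lower in Col-0. The median root minus shoot difference of the 54 was 0.67 in the mutant and 1.15 in Col-0, and -0.17 in the mutant and -0.15 in Col-0 after rescaling, below the medians of all genes on both scalings. Without Col-0 shoot replicate 1, 38 were higher and 12 lower in Col-0 as deposited.

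Of the 19 tested partners and regulators of the SOS pathway, 10 were higher and 3 lower in root in the mutant, and 14 were higher and 2 lower in Col-0, shares of higher genes near those of all genes. After rescaling, 2 were higher and 8 lower in the mutant, and 3 were higher and 7 lower in Col-0. Of all genes, 30.6% were then higher and 28.6% lower in the mutant, and 32.8% higher and 30.6% lower in Col-0. CIPK8, a kinase gene related to SOS2, had the largest difference toward root of the 19 as deposited, though not the highest level. It had 65.4 ± 2.6 and 60.1 ± 3.7 FPKM in mutant and Col-0 root against 10.7 ± 1.1 and 4.94 ± 2.13 FPKM in mutant and Col-0 shoot (SD, n = 2 each). Its difference was 2.51 in the mutant and 3.41 in Col-0 as deposited, and 1.66 in the mutant and 2.14 in Col-0 after rescaling. Of the 10 other CBL and CIPK genes tested, 6 were higher and 1 lower in root in the mutant, and 7 were higher and 1 lower in Col-0. As deposited, 58.7% of all genes were higher and 17.7% lower in the mutant, and 72.1% higher and 15% lower in Col-0. After rescaling, 4 were higher and 4 lower in the mutant, and 4 were higher and 3 lower in Col-0, beside the rescaled shares of all genes just given. CIPK23, the kinase that activates the potassium channel AKT1, was higher in root by 3.26 in the mutant and 4.19 in Col-0, and by 2.41 in the mutant and 2.94 in Col-0 after rescaling. CIPK9 differed by -4.18 in the mutant and -2.25 in Col-0, and by -4.91 in the mutant and -3.44 in Col-0 after rescaling.

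Of 18 genes for other cation transporters, 9 were higher and 5 lower in root in the mutant, and 11 were higher and 3 lower in Col-0. As deposited, 58.7% of all genes were higher and 17.7% lower in the mutant, and 72.1% higher and 15% lower in Col-0. After rescaling, 5 were higher and 7 lower in the mutant, and 7 were higher and 7 lower in Col-0. The rescaled shares of all genes were 30.6% higher and 28.6% lower in the mutant, and 32.8% higher and 30.6% lower in Col-0. CHX17, a cation/proton exchanger gene, was higher in root by 4.86 in the mutant and 4.78 in Col-0, and by 4.27 in the mutant and 4.19 in Col-0 after rescaling. The potassium uptake genes AKT1 and HAK5 were higher by 4.12 and 4.28 in the mutant and by 4.85 and 4.44 in Col-0, and after rescaling by 3.32 and 3.72 in the mutant and by 3.83 and 3.87 in Col-0. AKT2, a channel gene of the phloem, differed by -3.84 in the mutant and -2.73 in Col-0, and KAT1, a channel gene of guard cells, by -2.90 in the mutant and -1.95 in Col-0. Both kept that direction and passed after rescaling, AKT2 at -4.15 in the mutant and -3.45 in Col-0 and KAT1 at -3.20 in the mutant and -2.60 in Col-0.

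Of the 7 proton pump genes, which build the gradient the antiporters use, 6 were higher in root and 1 lower in each genotype as deposited. Of all genes, 58.7% were higher and 17.7% lower in the mutant, and 72.1% higher and 15% lower in Col-0. After rescaling, 1 was higher and 1 lower in the mutant, and 2 were higher and 4 lower in Col-0. The rescaled shares of all genes were 30.6% higher and 28.6% lower in the mutant, and 32.8% higher and 30.6% lower in Col-0. AHA1, VHA-A and VHA-a2 turned from higher to lower in root in Col-0, at -0.53, -0.47 and -0.46 (limma adjusted p = 0.0291, 0.048 and 0.0154). The vacuolar pump gene VHA-a3 lost its call in both genotypes, at 0.32 in the mutant (limma adjusted p = 0.167) and 0.20 in Col-0 (adjusted p = 0.351), and VHA-a1 lost it in the mutant, at 0.32 (adjusted p = 0.256). AHA2, like AHA1 a gene for a plasma membrane pump of the kind that would power SOS1, had 873 ± 20 and 855 ± 66 FPKM in mutant and Col-0 root against 41.7 ± 1.1 and 38.1 ± 8.4 FPKM in mutant and Col-0 shoot (SD, n = 2 each). It was higher in root on both scalings, by 3.48 in the mutant and 3.08 in Col-0 after rescaling. AHA1 had 287 ± 4.8 and 272 ± 17.6 FPKM in mutant and Col-0 root against 172 ± 1.2 and 151 ± 39.7 FPKM in mutant and Col-0 shoot (SD, n = 2 each). Its rescaled difference in the mutant was -0.15 (limma adjusted p = 0.487), so it was not higher in root after rescaling in either genotype. The vacuolar pyrophosphatase gene AVP1 was lower in root, at -0.51 in the mutant and -0.83 in Col-0 (limma adjusted p = 0.00236 and 0.00016), and at -1.39 in the mutant and -2.24 in Col-0 after rescaling.

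The genes most like SOS1, HKT1 and NHX1 were sought among 14357 genes by the distance between log2(FPKM + 1) profiles centred over the 8 libraries. The 8 points fall into a root and a shoot cluster and share the tissue shift of all genes, so the correlations below are a description. For SOS1 they were PAH2, a phosphatidate phosphatase gene, at a distance of 0.211 (Pearson r = 0.998), AT2G43490 at 0.214 and MAP2A, a methionine aminopeptidase gene, at 0.227. For HKT1 they were ACLA-1, an ATP-citrate lyase subunit gene, at 0.241 (r = 0.983), VHA-A, a subunit gene of the vacuolar proton pump, at 0.279 and HAG2, a histone acetyltransferase gene, at 0.287. For NHX1 they were AT2G42500, a protein phosphatase 2A catalytic subunit gene, at 0.110 (r = 0.998), AT3G06350 at 0.134 and ING2 at 0.137.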

How the data were processed

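Per the file headers, each library has a table of gene FPKM computed by the authors, which lists only genes above 0, and a gene absent from a table was taken as 0. The build was TAIR10 per the submitters' processing notes, while the aligner, the counting, the strand setting and the read totals were each not given in the sources used here. Depth is therefore known only relative to other libraries, and no counting interval can be given. FPKM was tested as log2(FPKM + 1) with limma 3.58.1 in R 4.3.3, with 4 groups, a mean trend, robust moderation and 4 residual degrees of freedom, for the 19985 genes with a mean of at least 1 FPKM over the root or the shoot libraries. P-values were adjusted over these genes by Benjamini and Hochberg with a threshold of 0.05. The fit was also run on simulated data with the same spread in every library. In the real data the Col-0 shoot pair was more spread, so that run is no check on the calls given here. Fold changes on this scale are understated for genes of low level.

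The members and the lists of further genes were chosen with earlier results of these data known. Named were all 10 members, the list genes with the largest passing differences (up to 3 per direction and list, or the largest where none passed) and the 3 nearest profiles to SOS1, HKT1 and NHX1 among genes with a mean of at least 5 FPKM, and the text gives part of these. CBL10, CIPK8, AHA2 and AVP1 are named under the same rule. AHA1, VHA-A and VHA-a2 are also named among the pumps, outside the rule, since their direction in Col-0 turned after rescaling. ABI4 was listed in no library and CBL5 was not tested. Of the listed genes, 25141 matched the RefSeq table, used for names only. The labels do not say that the replicate numbers pair the samples, so the main fit had no replicate block. The alternatives tried are in the closing section.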

Additional observations from a re-analysis of the deposited data

How the results depend on the processing

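The 10 genes gave 0 calls between genotypes in root under every alternative run, and 0 in shoot except when 1 library was left out. Leaving out each library in turn gave 0 to 8 calls in shoot, 0 to 7 for the difference between tissues, 6 to 10 for root minus shoot in the mutant and 8 to 10 in Col-0. Rescaling all libraries gave 4 in the mutant, where 59.2% of all genes passed, and 5 in Col-0, where 63.4% did. The same rescaling was also run without Col-0 shoot replicate 1, a fit chosen after seeing the data, which left 1 library in that group. Over all genes, root calls between genotypes (2) were 1 with a pseudocount of 0.1, 9 with no filter, 1 rescaled, 8 with only the 2 groups fitted, 17 rescaled without that library and 0 to 17 with 1 library left out. Shoot calls (204, 192 higher and 12 lower) were 2 with a pseudocount of 0.1, 17 with no filter, 28 rescaled over all libraries (21 higher and 7 lower), 17 rescaled within tissue (15 and 2), 1017 with the length trend removed (689 and 328), 0 with only the 2 groups, 353 without the mean trend, 3536 rescaled without that library and 0 to 13209 with 1 library left out. Calls for the difference between tissues (0) were 831 rescaled without that library and 0 to 11549 with 1 left out. The cause of these moves was not tested.

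A replicate block gave 1 call in root and 2 in shoot over all genes and changed no member count. The differences between replicate 1 and replicate 2 correlated between mutant and Col-0 at 0.0431 in root and 0.118 in shoot. Between root and shoot they correlated at 0.115 in the mutant and -0.00113 in Col-0. With 1 such difference per group, these values cannot tell whether same-numbered libraries were grown or collected together.

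Among the sodium genes and the list genes named for the size of their difference, signs turned mostly for differences that were not called. The exceptions were root minus shoot of NHX1 in both genotypes and of HKT1 and VHA-a3 in Col-0. The remaining list genes are not covered by that statement. Among those, AHA1, VHA-A and VHA-a2 turned from higher to lower in root in Col-0 after rescaling, at -0.53, -0.47 and -0.46. Rescaling over all libraries gave, between genotypes, NHX1 0.0042 in root, HKT1 -0.062 and NHX4 -0.20 in shoot, HKT1 -0.32 and NHX4 -0.20 for the difference between tissues, and, root minus shoot, NHX1 -0.10 and NHX3 -0.17 in the mutant and HKT1 -0.29 and NHX1 -0.059 in Col-0. Rescaling within tissue gave NHX1 0.0047 in root, HKT1 -0.010 and NHX4 -0.14 in shoot, and HKT1 -0.29 and NHX4 -0.14 for the difference between tissues. Removing the length trend gave NHX4 -0.031 in root, SOS3 -0.54, HKT1 -0.22, NHX1 -0.021, NHX4 -0.32 and NHX5 -0.00024 in shoot, and SOS3 -0.34, HKT1 -0.45, NHX4 -0.29 and NHX5 -0.12 for the difference. Rescaling without Col-0 shoot replicate 1 gave NHX4 -0.0045 in root, HKT1 -0.14, NHX2 -0.052 and NHX4 -0.066 in shoot, HKT1 -0.39, NHX2 -0.11 and NHX4 -0.061 for the difference, NHX1 -0.13 and NHX3 -0.20 in the mutant, and HKT1 -0.38, NHX1 -0.11 and VHA-a3 -0.0024 in Col-0. With 1 library left out, root differences between genotypes ran from -0.049 to 0.047 for NHX1, from -0.018 to 0.023 for NHX4, from -0.027 to 0.16 for NHX2 and from -0.043 to 0.21 for SOS2, the HKT1 difference between tissues from -0.20 to 0.32, and NHX2 root minus shoot in Col-0 from -0.44 to 0.38.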

Other observations

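PI4KG3 (AT5G24240), a gene annotated as a phosphoinositide 4-kinase of the gamma type, was 1 of the 2 genes that passed between mutant and Col-0 in root, and it lies near SOS3 on chromosome 5. It was chosen after its values were seen. Its deposited locus, at 8228892 to 8234652 in TAIR10, ends 3881 bases before that of SOS3 and also holds AT5G24230 and AT5G24250. It had 38.3 and 38.2 FPKM in the mutant root against 2.23 and 1.36 FPKM in Col-0 root, a difference of 3.83 ± 0.18 (SE on the log2(FPKM + 1) scale, limma adjusted p = 0.00276). In shoot it had 11.8 and 12.4 FPKM in the mutant against 0.0650 and 0.0445 FPKM in Col-0, a difference of 3.63 ± 0.18 (SE, limma adjusted p = 0.00396). SOS3, beside it, differed between mutant and Col-0 by -0.14 in root and 0.09 in shoot, and neither passed.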
